A study of Mus musculus with 288 samples.

Results

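The aorta was followed on 24 of the 288 arrays of a mouse circadian atlas, chosen by their label as aorta, with 1 array for every 2 h from CT18 to CT64. Circadian time, CT, is read from the animals' own day in constant darkness, with CT0 where lights would have come on, and the arrays span 2 days. The atlas holds 12 tissues with 24 arrays each, and was made to ask which genes follow a daily rhythm in each organ. All mice were of the strain the labels give as C57/BL6, and no modification or treatment is named; they were kept in 12 h of light and 12 h of darkness and then moved to constant darkness. Every array held RNA pooled from 3 mice, so no animal is measured alone and no time point has a replicate. Brown adipose, heart and skeletal muscle, with 24 arrays each from the same times, serve as comparisons. Neither age nor sex is given in the sources used here.

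The aortic wall is made of an endothelial lining, layers of smooth muscle cells between sheets of elastin, and an outer coat of fibroblasts and collagen. Brown-like fat surrounds the thoracic aorta, cardiac muscle borders its root, and skeletal muscle lies nearby. The circadian clock is a loop in which CLOCK and BMAL1 (gene Arntl) switch on their own repressors, the period and cryptochrome genes, while the REV-ERB repressors (Nr1d1, Nr1d2) hold Arntl down for part of the day. In blood vessels the clock is known for daily changes in tone, in clotting factors and in the stiffness of the wall.

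On 3 arrays, markers of a cell type foreign to the vessel wall were over 1 log2 unit and over 5 scaled median absolute deviations above the aorta median. The squamous and airway epithelium markers averaged 8.50 log2 units at CT44, against a median of 5.62 over the aorta arrays. Neuron markers averaged 7.31 at CT24 against a median of 5.63, and lung epithelium markers 6.80 at CT22 against 5.72. By overall correlation no array stood apart: each array's median correlation with the rest lay between 0.986 (CT44) and 0.994. Hepatocyte markers varied most of all 28 marker lists, with a mean from 6.46 at CT34 to 10.68 at CT18 and a median of 7.85, too wide a spread for any array to stand apart by it, and 0 of its 6 genes passed the test for a 24 h wave (0 at an unadjusted p under 0.05). For each gene group below, the count without these 3 arrays is given as well. That count keeps other arrays with foreign markers, such as CT18 with hepatocyte markers and CT34 with a neuron marker mean of 6.51.

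The label was borne out by vessel wall markers. The 9 smooth muscle markers averaged 11.30 log2 units in aorta, against 7.54 in brown adipose, 8.16 in heart and 7.51 in skeletal muscle. Among them, smooth muscle actin Acta2 averaged 13.54 and smooth muscle myosin Myh11 12.41 in aorta. Levels compared between tissues can be affected by how the authors normalized each tissue. Over the 24 aorta arrays the smooth muscle mean ran from 10.58 at CT26 to 11.75 at CT50, the endothelial mean from 8.94 at CT38 to 9.36 at CT28 and the fibroblast mean from 9.18 at CT26 to 10.04 at CT60. The smooth muscle and fibroblast means were thus both lowest at CT26.

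As a mean, brown adipocyte markers were high and varied less than heart and skeletal muscle markers. The 6 brown adipocyte markers averaged 9.01 in aorta and ran from 8.80 at CT62 to 9.29 at CT26, against a mean of 9.86 in brown adipose, 6.39 in heart and 5.88 in skeletal muscle. Their mean was 9.22 at CT30 and 9.10 at CT54, a day apart, against 8.91 at CT38 and 8.80 at CT62. A 24 h wave of this mean was not tested. Ucp1, the uncoupling protein of heat-producing fat, averaged 12.54 in aorta and 13.14 in brown adipose, and Cidea, a lipid droplet protein, 12.08 in aorta and 12.71 in brown adipose. Zic1, a transcription factor of the fat pad between the shoulder blades, averaged 4.86 in aorta, against 7.25 in brown adipose.

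Heart muscle markers were also high, and the atrial and ventricular light chains stood on opposite sides of their levels in heart. The 10 cardiomyocyte markers averaged 10.10 in aorta and ran from 8.58 at CT62 to 10.96 at CT22, against a mean of 12.10 in heart. The atrial light chain Myl7 averaged 10.93 in aorta and 6.58 in heart, while the ventricular light chain Myl2 averaged 5.16 in aorta and 13.76 in heart. Bmp10, another atrial gene, averaged 4.88 in aorta and 5.04 in heart. By the limma test 0 of the 10 cardiomyocyte markers had a 24 h wave, and 1 had an unadjusted p under 0.05.

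Skeletal muscle markers varied more than those of the vessel wall. The mean of the 15 fibre markers ran from 6.40 at CT20 to 9.69 at CT64 in aorta, against a mean of 13.30 in skeletal muscle. The fast myosin Myh2 was the 1 fibre marker past the test for a 24 h wave in aorta (6.30-fold, 95% interval 2.77 to 14.4, peak CT10.6, limma moderated F test, adjusted p = 0.015). By the same test 8 of the 15 had an unadjusted p under 0.05. The median fold over the list was 2.77, against 1.08 over all genes, and members short of the test reached 5.85-fold. With the means of the cardiomyocyte, skeletal muscle and brown adipocyte markers in the fit, Myh2 gave 2.37-fold (adjusted p = 0.067), and with the skeletal muscle mean alone 2.41-fold (adjusted p = 0.028). The adjusted p without the 3 arrays that stand apart was 0.086 for Myh2. In RNA from a whole tissue, fewer cells of a type and less RNA per cell cannot be told apart.

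**Figure D1:**
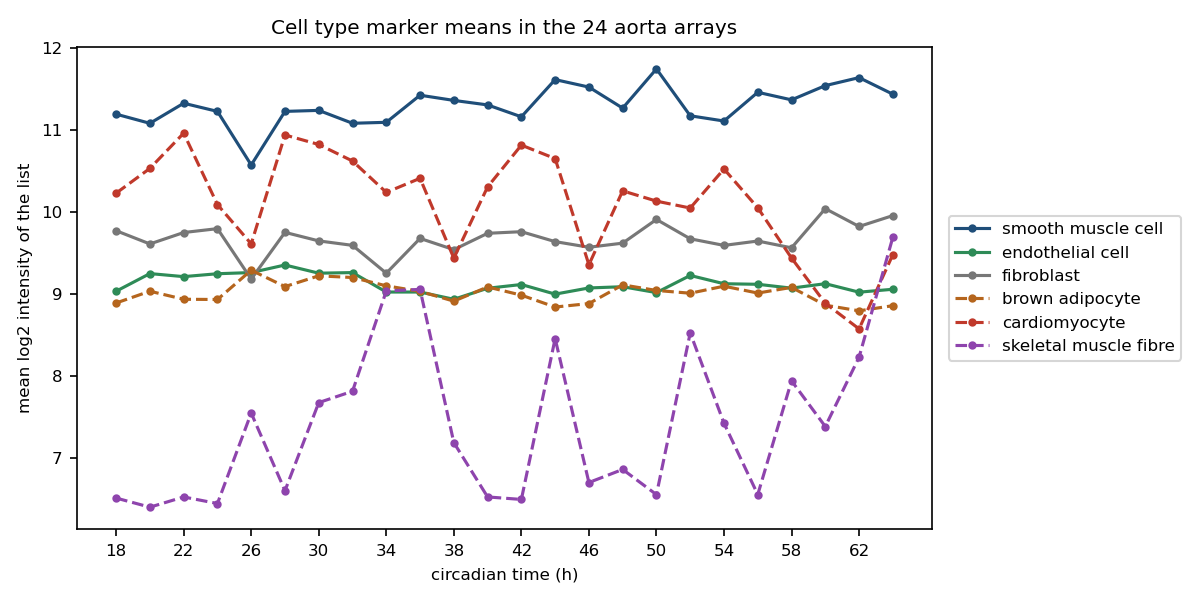
Mean log2 intensity of 6 cell type marker lists (vertical axis) on the 24 aorta arrays, 1 point per array, against circadian time in hours. The smooth muscle mean runs from 10.58 to 11.75 and the fibroblast mean from 9.18 to 10.04, both lowest at CT26; the endothelial and brown adipocyte means vary less, the cardiomyocyte mean falls to 8.58 at CT62, and the skeletal muscle mean moves between 6.40 at CT20 and 9.69 at CT64.

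Of 19938 genes, 1015 (5.09%) were rhythmic in aorta, which means that a wave with a period of 24 h fitted to the log2 values passed the moderated F test of limma at a Benjamini-Hochberg adjusted p under 0.05. Most waves were shallow. The fitted peak-to-trough fold had a median of 1.32 among rhythmic genes and 1.08 over all genes, 198 rhythmic genes (0.993% of those tested) reached 1.5-fold and 47 reached 2-fold. In 1006 of the 1015, waves fitted to each day alone peaked within 4 h of each other, which the choice of genes by both days favours. Without the 3 arrays that stand apart, 595 genes (2.98%) passed, 574 of them among the 1015. With the 3 marker means in the fit, 841 genes (4.22%) passed, of which 525 were among the 1015 and 316 were not. For each gene group below, 5.09%, 2.98% and 4.22% are the shares of all genes in these 3 fits. Members counted as passing both with and without the marker means compare with these 525 of 19938 genes.

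Peak times gathered in the second part of the subjective day. The 4 h from CT6 to CT10 held 322 rhythmic genes, 181 with a peak between CT6 and CT8 and 141 between CT8 and CT10. A smaller group peaked late at night, with 90 genes between CT20 and CT22 and 85 between CT22 and CT24. The fewest, 52, peaked between CT0 and CT2. Genes with peaks from CT6 to CT10 had a median fold of 1.28, against 1.34 for rhythmic genes with peaks at other times. Of these 322 genes, 167 (51.9%) also passed with the 3 marker means in the fit, against 358 of 693 (51.7%) at other times. From CT4 to CT6 the same count was 16 of 86. The brown adipocyte mean, highest at CT26, CT30 and CT32, is among the 3 means. A wave with the same time course as a marker mean cannot be told apart from that mean in this fit.

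**Figure D2:**
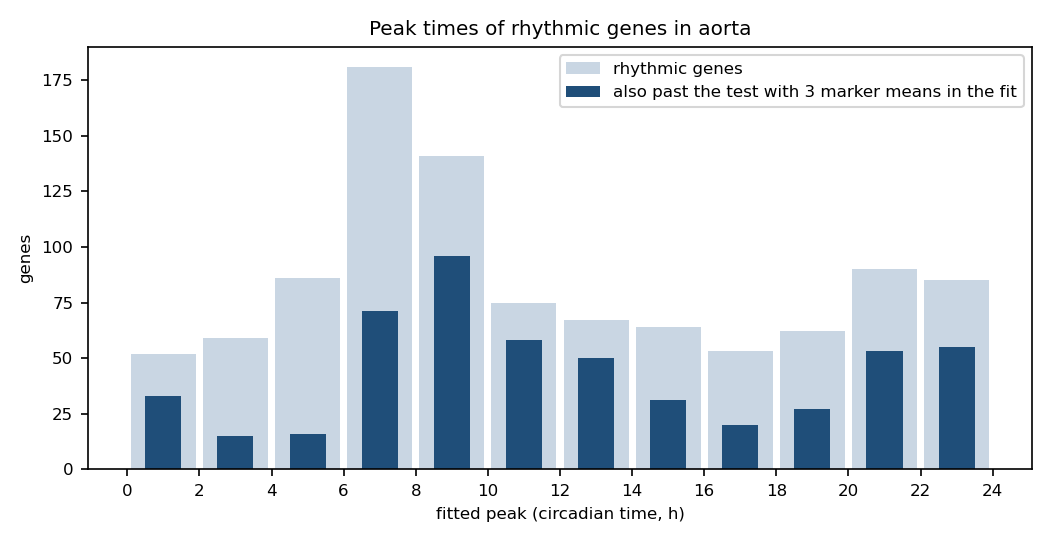
Number of rhythmic genes (vertical axis) by fitted peak in bins of 2 h of circadian time; wide pale bars show all 1015 rhythmic genes and narrow dark bars those that also passed with 3 marker means in the fit. The tallest pale bar, CT6 to CT8, holds 181 genes, of which 71 have a dark bar, and the tallest dark bar, CT8 to CT10, holds 96.

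The clock itself ran with large waves. Of 13 measured core clock genes, 12 were rhythmic (11 without the arrays that stand apart), against 5.09% of all genes, and 11 of these also passed with the 3 marker means (4.22% of all genes); their median fold was 3.42, against 1.08 over all genes. Nr1d1, which encodes the repressor REV-ERB alpha, ran from 7.77 at CT20, with a median of 10.16, up to 11.76 at CT54. Its wave measured 17.2-fold (95% interval 13.7 to 21.6) with a peak at CT7.16 (adjusted p = 2.7e-15). Nr1d2, its paralog, ran from 7.38 at CT46, with a median of 9.31, up to 10.17 at CT58 and gave 5.97-fold with a peak at CT9.68 (adjusted p = 8.3e-12). Arntl, the activator, ran from 5.55 at CT36, with a median of 7.09, up to 8.58 at CT24, with a wave of 8.20-fold (95% interval 7.01 to 9.60) and a peak at CT22.9 (adjusted p = 9.6e-16). Its partner Clock peaked close by, at CT23.4 (1.92-fold, adjusted p = 6.6e-09).

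The period genes followed Nr1d1 in the order Per1, Per3, Per2. Per1 ran from 7.32 at CT48, with a median of 8.57, up to 9.51 at CT58, and its wave of 2.71-fold peaked at CT10.1 with a standard error of 0.595 h. Per3 ran from 7.41 at CT50, with a median of 8.83, up to 9.69 at CT60 (4.50-fold, 95% interval 3.83 to 5.28, peak CT11.7 with a standard error of 0.198 h). Per2 ran from 7.30 at CT26, with a median of 8.80, up to 9.74 at CT60 (3.56-fold, 95% interval 2.92 to 4.34, peak CT13.3 with a standard error of 0.290 h). Ciart, a further repressor of CLOCK and BMAL1, had a wave of 6.84-fold (95% interval 4.89 to 9.56) with a peak at CT9.90. Bhlhe41, which competes for the same DNA sites, gave 3.42-fold at CT9.65. All 5 had an adjusted p at or below 5.3e-04.

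Cryptochromes moved less. Cry1 peaked at CT17.3 (1.74-fold, adjusted p = 1.0e-05), later than the period genes, and Cry2 at CT11.5 (1.34-fold, adjusted p = 2.7e-04). Bhlhe40 gave 1.58-fold at CT11.4 (adjusted p = 0.024), but adjusted p = 0.10 with the 3 marker means and adjusted p = 0.15 without the 3 arrays that stand apart (at most 0.055 with any 1 array left out, without CT24). Rora, an activator of Arntl, was the 1 measured member short of the test (1.12-fold, adjusted p = 0.45).

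**Figure D3:**
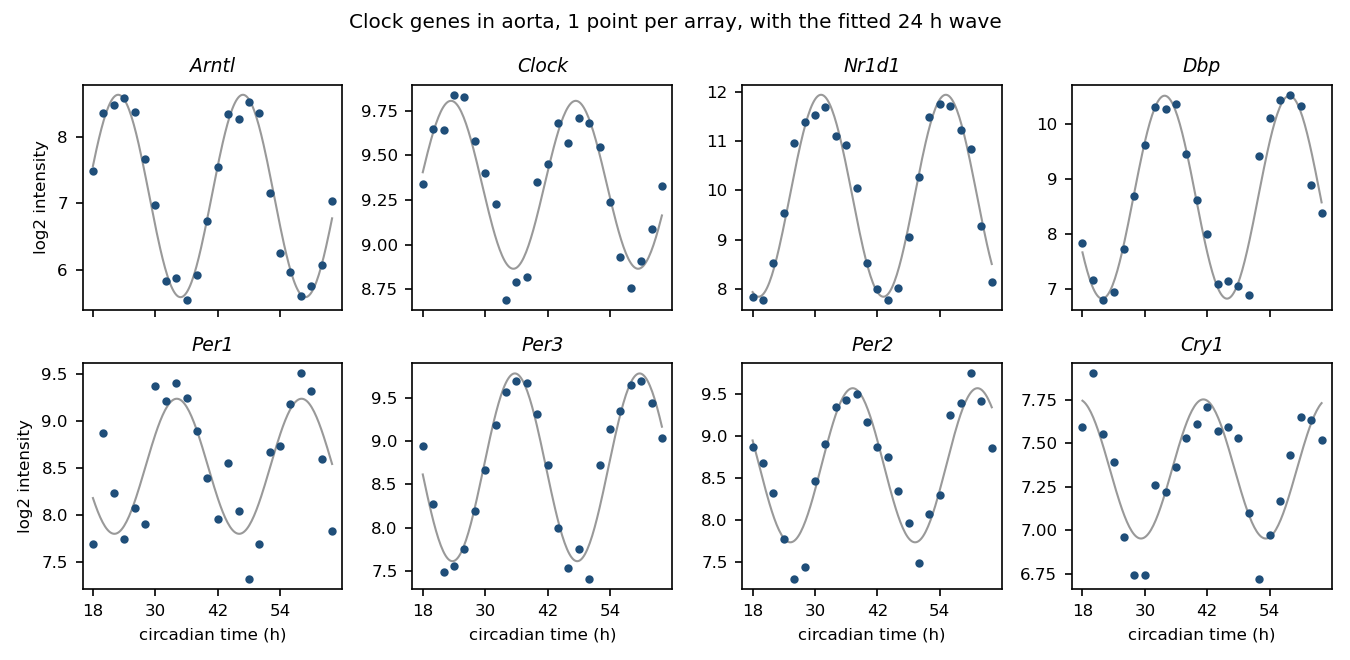
Log2 intensity (vertical axes, each with its own range) of 8 clock genes against circadian time in hours, with 1 point per aorta array and the fitted 24 h wave as a line. Arntl is highest at CT24, at 8.58, and Nr1d1 at CT54, at 11.76.

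Genes known as direct outputs of the clock behaved likewise: 11 of 12 (91.7%; median fold over the list 2.31; 11 without the arrays that stand apart) were rhythmic, and all 11 also passed with the 3 marker means. Over all genes the shares were 5.09% and 4.22%. Dbp, a transcription factor that binds D-boxes, ran from 6.80 at CT22, with a median of 8.66, up to 10.53 at CT58, a wave of 12.9-fold (95% interval 10.03 to 16.5) with a peak at CT9.80 (adjusted p = 2.7e-13). Tef, of the same family, gave 3.17-fold at CT11.4, and Hlf 2.08-fold at CT11.7. Nfil3, which represses at the same sites, peaked on the other side of the day, at CT21.2 (3.89-fold, 95% interval 2.84 to 5.31, adjusted p = 5.4e-06). Klf10 was short of the test (1.20-fold, adjusted p = 0.40).

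Promoters of 3 clock genes and 1 heat shock gene show DNA words read by the factors named here. Each line gives the 250 bases before the RefSeq transcription start (build GRCm38.p6), 5′ to 3′ on the gene's strand, with the match in capitals. Ciart (chr3:95882229-95882478, minus strand) has 3 E-boxes, CACGTG, the site of CLOCK and BMAL1. Per3 (chr4:151044666-151044915, minus strand) has a pair of D-boxes, TTATGTAA. Nfil3 (chr13:52981040-52981289, minus strand) has the REV-ERB and ROR site TAGGTCA, here on the opposite strand. Hspb1 (chr5:135887669-135887918, plus strand) has a pair of heat shock elements, GAANNTTC.
Ciart: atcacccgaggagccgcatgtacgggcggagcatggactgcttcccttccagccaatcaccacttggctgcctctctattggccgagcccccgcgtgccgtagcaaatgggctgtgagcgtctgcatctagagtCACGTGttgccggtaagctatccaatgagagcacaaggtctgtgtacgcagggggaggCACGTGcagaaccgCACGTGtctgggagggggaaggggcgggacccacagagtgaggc
Per3: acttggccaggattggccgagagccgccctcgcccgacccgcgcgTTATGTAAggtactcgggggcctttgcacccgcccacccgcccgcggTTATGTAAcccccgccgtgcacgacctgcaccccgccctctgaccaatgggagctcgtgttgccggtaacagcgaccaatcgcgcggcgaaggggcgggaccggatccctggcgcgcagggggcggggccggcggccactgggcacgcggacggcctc
Nfil3: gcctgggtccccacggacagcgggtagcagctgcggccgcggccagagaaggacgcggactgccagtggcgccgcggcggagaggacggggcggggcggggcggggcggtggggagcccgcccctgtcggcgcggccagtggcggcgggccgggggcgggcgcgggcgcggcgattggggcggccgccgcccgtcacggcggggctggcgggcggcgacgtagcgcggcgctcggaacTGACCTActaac
Hspb1: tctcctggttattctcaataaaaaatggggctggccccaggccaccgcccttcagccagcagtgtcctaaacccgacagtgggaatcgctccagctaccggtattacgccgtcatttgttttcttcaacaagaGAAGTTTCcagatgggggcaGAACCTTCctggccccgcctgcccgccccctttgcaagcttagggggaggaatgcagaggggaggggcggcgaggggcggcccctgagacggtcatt

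Over windows of 300 bases (250 before the start and 50 after, both strands, any window of a gene), the E-box was present in 125 of 819 rhythmic genes with a promoter (15.3%), against 1481 of 15563 genes in all (9.52%). By peak time the share was 14.7% for CT0 to CT6, 20.8% for CT6 to CT12, 11.6% for CT12 to CT18 and 8.29% for CT18 to CT24. TAGGTCA was present in 4.97% of genes with peaks from CT18 to CT24 and in 2.64% of all genes. The D-box was present in 6 of 819 rhythmic genes and 1.002% of all genes, and TGACGTCA, the cyclic AMP response element, in 2.08% of rhythmic genes and 2.72% of all genes. These shares describe letters in a window and were not tested.

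For the contractile machinery of smooth muscle the share of rhythmic genes was near that of all genes. Of its members 2 of 28 (7.14%; median fold over the list 1.16; 1 without the arrays that stand apart) were rhythmic, against 5.09% of all genes with a median fold of 1.08, and 26 were short of the test. Acta2 had a fold of 1.05 (adjusted p = 0.89) and the crosslinker Flna 1.18 (adjusted p = 0.59). Smtnl2, a smoothelin-like protein, ran from 7.31 at CT54, with a median of 7.79, up to 8.42 at CT40, a wave of 1.65-fold (95% interval 1.42 to 1.91) with a peak at CT18.8 (adjusted p = 2.3e-04). The intermediate filament gene Synm gave 1.19-fold at CT13.3 (adjusted p = 0.016, and 0.23 with the 3 marker means). Among regulators of smooth muscle genes, 2 of 19 (10.5%; median fold over the list 1.10; 1 without the arrays that stand apart) were rhythmic: Gata6 (1.37-fold, peak CT18.9, adjusted p = 0.024) and Tead1 (1.298-fold, peak CT18.4, adjusted p = 0.0046). Gata6 had adjusted p = 0.42 with the marker means, and Tead1 0.019. Myocd, the master coactivator of smooth muscle genes, had a fold of 1.10 (adjusted p = 0.94). The CArG box, bound by serum response factor, was present in 4 of 24 contractile promoters and 1.63% of all promoters. Leaving out the 3 arrays that stand apart gave an adjusted p of 0.056 for Synm and 0.11 for Gata6. The highest adjusted p with any 1 array left out was 0.064 for Gata6 (without CT32).

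Elastic fibre genes included waves that peaked late in the subjective night. Lox, the enzyme that crosslinks elastin and collagen, ran from 8.24 at CT34, with a median of 9.29, up to 10.30 at CT50. It was lowest at CT34 and highest at CT50, with a wave of 2.17-fold (95% interval 1.76 to 2.67) and a peak at CT22.4 (adjusted p = 5.4e-05). Eln, elastin itself, ran from 10.72 at CT34, with a median of 11.33, up to 12.19 at CT50 (1.58-fold, 95% interval 1.28 to 1.95, peak CT22.2, adjusted p = 0.017). At CT34, where Lox and Eln were lowest, the fibroblast marker mean was 9.26, against a median of 9.66, and at CT50 it was 9.91. That mean was lowest at CT26, at 9.18, and highest at CT60, at 10.04. Among its 8 members, Dcn, Lum and Dpt had their minimum at CT34. The part of fibroblast RNA in these waves was not tested. Efemp1, a fibulin, gave 1.42-fold at CT22.3 (adjusted p = 0.012). These were 3 of 20 (15%, median fold over the list 1.14, 1 without the arrays that stand apart), against 5.09% of all genes. All 3 also passed with the 3 marker means (4.22% of all genes). Without the 3 arrays that stand apart, Lox still had adjusted p = 0.0021. Fbln5, which anchors elastin to cells, had a fold of 1.21 (adjusted p = 0.70), and Ltbp4 1.22 (adjusted p = 0.43). With the smooth muscle marker mean in the fit, an alternative added after the data were seen, Lox gave 2.27-fold (adjusted p = 4.1e-08) and Eln 1.67-fold (adjusted p = 3.5e-06). Without the 3 arrays that stand apart, the adjusted p was 0.11 for Eln and 0.083 for Efemp1.

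Rhythmic collagen chains had small folds. Of this list 3 of 19 (15.8%; median fold over the list 1.12; 0 without the arrays that stand apart) were rhythmic (Col4a1, Col5a3 and Col12a1, between 1.19-fold and 1.22-fold), and 0 of these 3 passed with the marker means, where their adjusted p lay between 0.066 and 0.33. Col1a1, a main fibrillar chain, had a fold of 1.05 (adjusted p = 0.96). Collagen processing had 2 of 15 (13.3%; median fold over the list 1.08; 1 without the arrays that stand apart): the prolyl hydroxylase P4ha1 (1.48-fold, peak CT18.6, adjusted p = 0.011) and the collagen chaperone Serpinh1 (1.301-fold, peak CT20.3, adjusted p = 0.013). With the marker means they had adjusted p = 0.22 and 0.30. Proteoglycans and matricellular proteins had 2 of 32 (6.25%; median fold over the list 1.16; 1 without the arrays that stand apart), also near the 5.09% of all genes. The first was Angptl7, a secreted protein, which ran from 6.61 at CT28, with a median of 7.81, up to 9.29 at CT64 (3.39-fold, 95% interval 2.42 to 4.74, peak CT16.3, adjusted p = 7.8e-05). The other was the proteoglycan Vcan (1.54-fold, peak CT14.8, adjusted p = 0.025), with adjusted p = 0.26 under the marker means. The adjusted p without the 3 arrays that stand apart was 0.073 for Col4a1, 0.051 for Col5a3, 0.098 for Col12a1, 0.060 for Serpinh1 and 0.074 for Vcan. With 1 array left out at a time, the highest adjusted p was 0.065 for Col4a1 (without CT50), 0.083 for Col5a3 (without CT36), 0.083 for Col12a1 (without CT42) and 0.068 for Vcan (without CT62).

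Matrix turnover was the vessel wall list with most rhythmic members, 8 of 27 (29.6%; median fold over the list 1.19; 6 without the arrays that stand apart), of which 2 also passed with the 3 marker means. Of all genes 5.09% were rhythmic, and 4.22% passed with the marker means. Adamts1, a protease that cleaves versican, ran from 8.08 at CT26, with a median of 9.11, up to 10.21 at CT60. It was high at CT58 and CT60, and its wave measured 2.02-fold (95% interval 1.52 to 2.68) with a peak at CT11.1 (adjusted p = 0.0064, and 0.012 with the marker means). Mmp14, a membrane protease that activates other proteases, peaked at CT1.78 (1.35-fold, adjusted p = 0.0044, and 0.012 with the marker means). Adam19 gave 1.33-fold at CT23.7 (adjusted p = 0.0044) and Mmp9 1.32-fold at CT4.30 (adjusted p = 0.043). Timp2, an inhibitor of these proteases, had a fold of 1.25 (adjusted p = 0.42). Leaving out the 3 arrays that stand apart gave an adjusted p of 0.088 for Mmp9. The highest adjusted p with any 1 array left out was 0.10 for Mmp9 (without CT52). The adjusted p with the 3 marker means was 0.057 for Adam19 and 0.10 for Mmp9.

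Rhythmic endothelial markers peaked early in the subjective day. Among the 12 endothelial markers 4 (33.3%, median fold over the list 1.17, 2 without the arrays that stand apart) were rhythmic, against 5.09% of all genes. Their peaks ran from CT0.844 to CT5.33. Cldn5, which seals the junctions between endothelial cells, ran from 8.08 at CT36, with a median of 8.79, up to 9.41 at CT28 (1.74-fold, 95% interval 1.49 to 2.04, peak CT0.844, adjusted p = 1.2e-04). The cadherin Cdh5 gave 1.31-fold at CT3.07 (adjusted p = 0.015), the receptor Tie1 1.27-fold at CT4.42 (adjusted p = 0.0015) and the secreted Egfl7 1.31-fold at CT5.33 (adjusted p = 0.016). With the 3 marker means Cldn5 and Egfl7 still passed, while Cdh5 had adjusted p = 0.20 and Tie1 0.078. Over the same arrays the mean of all 12 markers ran from 8.94 at CT38 to 9.36 at CT28, and 7 of the 12 had an unadjusted p under 0.05 in limma. The part of the amount of endothelial RNA in these waves was not tested. Without the 3 arrays that stand apart, the adjusted p was 0.057 for Cdh5 and 0.054 for Egfl7.

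Of genes of the endothelial control of tone 5 of 29 (17.2%; median fold over the list 1.18; 5 without the arrays that stand apart) were rhythmic, and 3 of them also passed with the 3 marker means. The shares over all genes were 5.09% and, with the marker means, 4.22%. Ptgs2, the inducible cyclooxygenase, ran from 6.92 at CT26, with a median of 7.60, up to 8.71 at CT60. It was highest on the second day, and its wave of 1.91-fold (95% interval 1.45 to 2.51) peaked at CT10.9 (adjusted p = 0.0095). Edn1, the vasoconstrictor endothelin 1, ran from 6.85 at CT34, with a median of 7.78, up to 8.35 at CT62 (1.65-fold, 95% interval 1.33 to 2.06, peak CT17.9, adjusted p = 0.013). With the 3 marker means Edn1 gave 1.27-fold and adjusted p = 0.51, and with the skeletal muscle mean alone 1.64-fold and adjusted p = 0.019 (4.26% of all genes passed that fit). Ramp2, part of the adrenomedullin receptor, gave 1.46-fold at CT10.4 (adjusted p = 1.8e-04). Cav1, the caveola protein, had a fold of 1.10 (adjusted p = 0.27) and the prostacyclin synthase Ptgis 1.31 (adjusted p = 0.31).

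Of receptors and signalling genes of vessel tone 3 of 43 (6.98%; median fold over the list 1.13; 1 without the arrays that stand apart) were rhythmic, a share near the 5.09% of all genes. The prostaglandin receptor Ptger3 gave 1.64-fold (95% interval 1.42 to 1.88) at CT18.8 (adjusted p = 1.3e-04), the serotonin receptor Htr1b 1.65-fold at CT16.7 (adjusted p = 0.044) and Rgs2, which shortens G protein signals, 1.53-fold at CT23.9 (adjusted p = 0.011). Of these, Ptger3 also passed with the 3 marker means. With the smooth muscle marker mean in the fit, 9 of 43 passed (6.89% of all genes passed that fit). The GTPase Rhoa, which drives contraction, had a fold of 1.04 (adjusted p = 0.86). The adjusted p without the 3 arrays that stand apart was 0.12 for Htr1b and 0.074 for Rgs2. With 1 array left out at a time, the highest adjusted p was 0.11 for Htr1b (without CT54). Fitting the 3 marker means gave an adjusted p of 0.67 for Htr1b and 0.078 for Rgs2.

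In clotting and fibrinolysis 2 of 18 (11.1%, median fold over the list 1.09, 1 without the arrays that stand apart) were rhythmic, against 5.09% of all genes. They were the plasmin cofactor Anxa2 (1.299-fold, peak CT23.8, adjusted p = 0.0049) and the protein C receptor Procr (1.21-fold, peak CT9.61, adjusted p = 0.047). Tissue factor, F3, had a fold of 1.28 (adjusted p = 0.37). Among genes of adhesion and inflammation 6 of 24 (25%; median fold over the list 1.11; 4 without the arrays that stand apart) were rhythmic. Il33, an alarm cytokine, ran from 6.81 at CT26, with a median of 7.38, up to 8.05 at CT60 (1.67-fold, peak CT15.1, adjusted p = 7.8e-05). Cd14, a receptor for bacterial lipid, peaked nearby at CT15.4 (1.55-fold, adjusted p = 0.0013), and the chemokine Ccl11 at CT9.01 (1.39-fold, adjusted p = 0.0023). Il33, Cd14 and Ccl11 also passed with the marker means. Il33, Adamts1, Ptgs2 and Fkbp5 (below) all had their highest value at CT60. On that array macrophage markers averaged 9.04, against a median of 8.25, and lymphocyte markers 6.56, against 5.86. Neither list is among the marker means in the fit, and the part of these cells in the waves was not tested. Leaving out the 3 arrays that stand apart gave an adjusted p of 0.10 for Procr. The highest adjusted p with any 1 array left out was 0.099 for Procr (without CT44).

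No member of the 28 TGF-beta and BMP signalling genes (median fold 1.11) passed the test in limma, where 7 had an unadjusted p under 0.05, while 1 did without the arrays that stand apart, 2 with the 3 marker means and 2 with array weights (9.42% of all genes). Bmpr2, a receptor of this family, had a fold of 1.06 (adjusted p = 0.81). Notch and PDGF signalling had 5 of 20 (25%; median fold over the list 1.22; 3 without the arrays that stand apart), with the growth factors Pdgfd (1.42-fold, peak CT21.1, adjusted p = 0.0037) and Pdgfc (1.32-fold, peak CT16.6, adjusted p = 0.0029) and the Notch modifier Mfng (1.37-fold, peak CT9.27, adjusted p = 0.0013) among them. Pdgfd and Mfng also passed with the marker means. Among all genes 5.09% were rhythmic, and 4.22% passed with the marker means. With the 3 marker means in the fit, the adjusted p was 0.20 for Pdgfc.

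**Figure D4:**
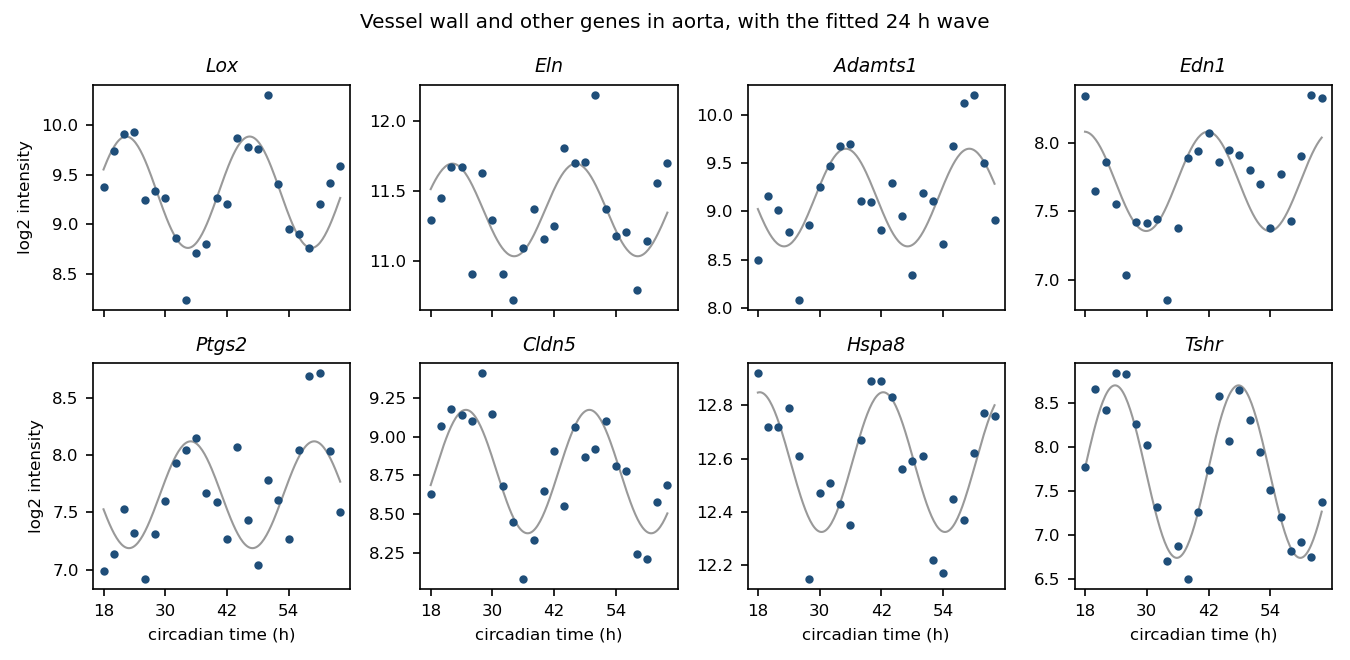
Log2 intensity (vertical axes, each with its own range) of 8 genes against circadian time in hours, with 1 point per aorta array and the fitted 24 h wave as a line. Lox and Eln are lowest at CT34 and highest at CT50, Ptgs2 reaches 8.71 at CT60, and Cldn5 and Tshr are high around CT24 to CT28 on the first day.

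Rhythmic heat shock genes shared a time of day, with peaks between CT16.5 and CT20.2. Of this list 9 of 19 (47.4%; median fold over the list 1.25; 9 without the arrays that stand apart) were rhythmic with a mean peak at CT18.9, and 6 of these also passed with the 3 marker means. Over all genes 5.09% were rhythmic, and 4.22% passed with the marker means. Hspa8, an abundant chaperone, ran from 12.15 at CT28, with a median of 12.61, up to 12.92 at CT18 (1.44-fold, peak CT18.4, adjusted p = 1.6e-04). Hsph1, its nucleotide exchange factor, gave 2.08-fold (95% interval 1.58 to 2.75) at CT18.6 (adjusted p = 0.0037), Hspb1 1.69-fold at CT18.8 and Cacybp 1.58-fold at CT20.2. Hspd1, the mitochondrial chaperonin, had a fold of 1.16 (adjusted p = 0.32). The element shown in the Hspb1 promoter was present in 10 of 17 promoters of the list and 7.95% of all promoters. The cold-inducible Cirbp peaked at the opposite time, at CT6.10 (1.46-fold, 95% interval 1.27 to 1.69, adjusted p = 0.0034). The list of endoplasmic reticulum chaperones also holds stress response genes that are not chaperones. Of its members 7 of 19 (36.8%, median fold over the list 1.18, 3 without the arrays that stand apart) were rhythmic, with a mean peak at CT19.5. Herpud1, a stress response gene and not a chaperone, was the 1 that also passed with the marker means (1.42-fold, peak CT11.3, adjusted p = 0.0034). The adjusted p with the 3 marker means was 0.075 for Hsph1.

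Cholesterol genes that were rhythmic peaked mostly late in the night. Of this list 10 of 20 (50%; median fold over the list 1.25; 8 without the arrays that stand apart) were rhythmic with a mean peak at CT20.9, and 8 also passed with the 3 marker means. The shares of all genes were 5.09% and, with the marker means, 4.22%. Idi1, an isoprenoid isomerase, ran from 6.902 at CT34, with a median of 7.46, up to 8.15 at CT26 (1.65-fold, peak CT21.0, adjusted p = 0.0015). Msmo1, Sqle and Nsdhl, enzymes of later steps, gave 1.56-fold, 1.52-fold and 1.51-fold, with peaks at CT19.4, CT20.5 and CT21.7. Fdft1 peaked apart from these, at CT12.4 (1.47-fold, adjusted p = 0.0037). Srebf2, the regulator of the pathway, had a fold of 1.08 (adjusted p = 0.77).

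Targets of glucocorticoids, the adrenal hormones with a daily rhythm of their own, had 10 of 21 (47.6%; median fold over the list 1.42; 9 without the arrays that stand apart) rhythmic, and 6 of these also passed with the marker means. Of all genes 5.09% were rhythmic, and 4.22% passed with the marker means. Fkbp5, a cochaperone of the glucocorticoid receptor, ran from 6.83 at CT48, with a median of 7.61, up to 9.08 at CT60 (2.49-fold, 95% interval 1.96 to 3.17, peak CT12.9, adjusted p = 4.3e-05). Tsc22d3, a mediator of anti-inflammatory effects, gave 1.89-fold at CT14.3 (adjusted p = 5.7e-05). Angptl4, an inhibitor of lipoprotein lipase, peaked at another time, CT2.02 (2.13-fold, 95% interval 1.70 to 2.66, adjusted p = 2.1e-04). The stress target Dusp1 had a fold of 1.20 (adjusted p = 0.60).

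Genes of fat and heat production, read beside the brown adipocyte markers above, were often rhythmic. Among all genes the share was 5.09%, and 4.22% passed with the 3 marker means. Thermogenesis had 9 of 21 (42.9%; median fold over the list 1.33; 8 without the arrays that stand apart), with a mean peak at CT6.35, of which 3 also passed with the 3 marker means. Ppargc1a, a coactivator of mitochondrial genes, ran from 8.96 at CT38, with a median of 9.78, up to 11.18 at CT30 (2.05-fold, peak CT6.38, adjusted p = 0.022, and 0.37 with the marker means). Ucp3 gave 2.05-fold at CT6.73 and passed both fits. Ucp1 itself gave 1.43-fold at CT5.45 (adjusted p = 0.036, and 0.18 with the marker means). Lipid handling had 11 of 31 (35.5%; median fold over the list 1.17; 8 without the arrays that stand apart), of which 8 passed both fits. Lep, the fat hormone leptin, ran from 7.44 at CT50, with a median of 8.38, up to 9.48 at CT64 (2.42-fold, 95% interval 1.75 to 3.34, peak CT16.3, adjusted p = 0.0025), and Acly, which makes acetyl-CoA for fat synthesis, gave 1.90-fold at CT21.3 (adjusted p = 3.5e-04). Lep is 1 of 3 white adipocyte markers, whose mean was also lowest at CT50, at 8.72, and highest at CT64, at 9.76. That mean is not among the marker means in the fit, and the part of white fat in the Lep wave was not tested. Fabp4, an abundant fat cell protein, had a fold of 1.08 (adjusted p = 0.53). Without the 3 arrays that stand apart, the adjusted p was 0.090 for Ucp1. With 1 array left out at a time, the highest adjusted p was 0.067 for Ppargc1a (without CT30) and 0.10 for Ucp1 (without CT30).

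Immediate early genes had 2 of 24 (8.33%, median fold over the list 1.17, 1 without the arrays that stand apart), a share near the 5.09% of all genes. The 2 were Nr4a3 (2.12-fold, peak CT7.94, adjusted p = 0.035) and Ier5 (1.40-fold, peak CT23.8, adjusted p = 0.0067). Of these, 0 also passed with the marker means (4.22% of all genes). Antioxidant defence had 4 of 22 (18.2%; median fold over the list 1.12; 1 without the arrays that stand apart), with the regulator Nfe2l2 (1.27-fold, peak CT14.4, adjusted p = 0.0093) among them. Nox4, a source of reactive oxygen in vessels and the member with the largest fold, had 1.498-fold at CT16.0 (adjusted p = 0.045, and 0.57 with the marker means). The adjusted p without the 3 arrays that stand apart was 0.077 for Ier5 and 0.099 for Nox4. The highest adjusted p with any 1 array left out was 0.090 for Nr4a3 (without CT56) and 0.094 for Nox4 (without CT62). Fitting the 3 marker means gave an adjusted p of 0.088 for Nr4a3 and 0.072 for Ier5.

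Outside the clock and marker lists, the largest folds among genes above the aorta median level included those of receptors, secreted proteins and lipid enzymes. Tshr, the thyrotropin receptor, ran from 6.50 at CT38, with a median of 7.75, up to 8.84 at CT24, a wave of 3.91-fold (95% interval 3.25 to 4.69) with a peak at CT23.8 (adjusted p = 2.1e-10). Cyp2b10, a cytochrome P450, ran from 8.002 at CT54, with a median of 9.24, up to 10.54 at CT40 (3.35-fold, 95% interval 2.66 to 4.23, peak CT17.7, adjusted p = 2.8e-07). Dhrs9, a dehydrogenase of retinoids and steroids, ran from 5.91 at CT38, with a median of 7.36, up to 8.63 at CT30 (3.21-fold, 95% interval 2.34 to 4.403, peak CT1.61, adjusted p = 6.5e-05). Inmt, a methyltransferase, gave 2.72-fold at CT13.1. The fatty acid transporter Slc27a2 gave 2.55-fold at CT7.45, Ehhadh, of peroxisomal fat oxidation, 2.44-fold at CT5.17, and the desaturase Scd2 2.30-fold at CT20.9. Gsta3, a glutathione transferase outside the lists used here, gave 2.30-fold at CT17.7. Fbxo21, of a ubiquitin ligase, gave 2.20-fold at CT7.22 and Dtx4, also a ubiquitin ligase, 2.13-fold at CT23.3. The small nucleolar RNA Snord118 gave 2.09-fold at CT4.22 (adjusted p = 0.012, and 0.060 with the marker means). The other 10 genes, from Tshr to Dtx4, passed both fits.

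To see which of these waves differ from those of the tissues whose markers appear in aorta, the wave of each gene was compared between tissues in a fit to both. The size of a difference is given as the peak-to-trough fold of what is left when the other tissue's wave is subtracted. Against brown adipose 283 genes (1.42%) differed, 68 of them rhythmic in aorta, and 426 with circadian time as a block. Against heart 862 (4.32%) differed, 445 of them rhythmic in aorta, and against skeletal muscle 680 (3.41%), 335 of them rhythmic in aorta. The 3 comparisons share the aorta arrays. With the marker means fitted within each tissue, 14 genes differed from brown adipose.

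Tshr, Cyp2b10 and Dhrs9 had large waves in aorta and brown adipose and small ones in heart. The folds of Tshr were 3.91-fold in aorta, 6.01-fold in brown adipose, 1.04-fold in heart and 2.15-fold in skeletal muscle. Its difference was 3.76-fold from heart (adjusted p = 7.0e-13) and 1.54-fold from brown adipose (adjusted p = 0.50). Cyp2b10 gave 3.35-fold in aorta, 3.52-fold in brown adipose, 1.05-fold in heart and 1.13-fold in skeletal muscle, with differences of 3.33-fold from heart (adjusted p = 3.7e-08) and 1.06-fold from brown adipose (adjusted p = 0.9982). Dhrs9 gave 3.21-fold in aorta, 4.05-fold in brown adipose and 1.10-fold in heart (2.97-fold from heart, adjusted p = 6.2e-05). A p that misses the threshold does not show that aorta and brown adipose have the same wave.

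Angptl7 showed another pattern. It had 3.39-fold in aorta, 1.06-fold in brown adipose, 2.92-fold in heart and 2.70-fold in skeletal muscle. Its wave differed from that of brown adipose (3.59-fold, adjusted p = 1.6e-04) and of skeletal muscle (3.32-fold, adjusted p = 0.0019), and the difference from heart was 1.17-fold (adjusted p = 0.92). Among clock genes, Nr1d1 gave 17.2-fold in aorta, 12.4-fold in brown adipose, 5.90-fold in heart and 4.10-fold in skeletal muscle, and its wave differed from heart by 2.98-fold (adjusted p = 4.8e-06) and from skeletal muscle by 7.16-fold (adjusted p = 4.6e-10). Of the core clock genes, 8 of 13 differed from skeletal muscle, 3 from heart and 0 from brown adipose, where 2 had an unadjusted p under 0.05. With circadian time as a block these counts were 9, 4 and 3, and against brown adipose Nr1d1 had adjusted p = 0.022 and Nr1d2 0.0018. The fibre marker Myh2 differed from brown adipose by the largest fold of the genes named here (40.7-fold, adjusted p = 0.0039). With marker means within each tissue, where the fibre mean includes Myh2 itself, the difference was 1.94-fold (adjusted p = 0.64). Myh2 peaked in brown adipose at CT22.2, and the skeletal muscle marker mean there ran from 6.54 to 11.28.

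Against the mean wave of the other 11 tissues, 1285 genes (6.44%) differed, 585 of them rhythmic in aorta. Lox (1.92-fold, adjusted p = 3.3e-13), Eln (1.45-fold, adjusted p = 3.1e-06), Adamts1 (1.89-fold, adjusted p = 1.8e-08) and Ptgs2 (1.83-fold, adjusted p = 8.3e-09) were among the vessel wall genes that differed. By the same wave fit in each tissue, 14 of the 1015 rhythmic genes were rhythmic in all 11 others and 39 in none. Of those 39, the wave of 31 differed from the mean of the others, which the choice of these genes from the same arrays favours. With circadian time as a block, 214 genes differed, and the adjusted p was 0.0016 for Lox, 0.17 for Eln, 0.030 for Adamts1 and 0.042 for Ptgs2. The fit without blocks took the scatter of each gene over all 288 arrays, so its p does not measure the scatter of the aorta arrays alone. By it 7 of 10 cardiomyocyte and 13 of 15 skeletal muscle fibre markers differed, against 0 and 1 with circadian time as a block.

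**Figure D5:**
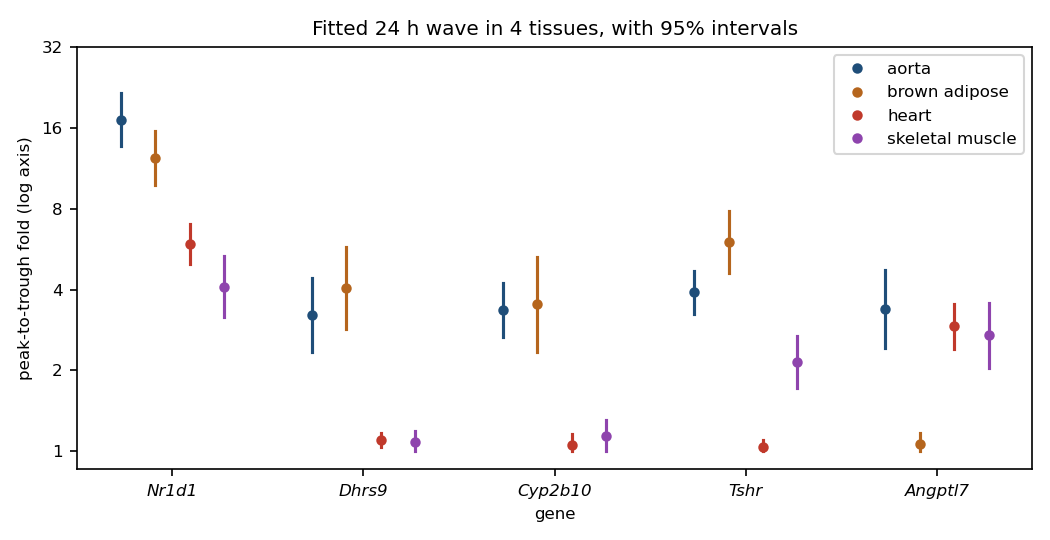
Fitted peak-to-trough fold of the 24 h wave (vertical log axis) of 5 genes in aorta, brown adipose, heart and skeletal muscle, from left to right within each gene, with 95% intervals as lines. Dhrs9, Cyp2b10 and Tshr lie between 3.21 and 6.01 in aorta and brown adipose and between 1.04 and 1.10 in heart, while Angptl7 lies at 1.06 in brown adipose.

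No gene passed for a wave with a period of 12 h or for a straight trend over the 2 days in limma. At an unadjusted p under 0.05 there were 1175 genes for the 12 h wave and 2370 for the trend. The lowest adjusted p was 0.15 for the 12 h wave and 0.11 for the trend. With quantile normalization 1 gene passed for the trend.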

How the data were processed

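Expression in 24 aorta samples, 1 array per time, was measured on Affymetrix arrays. The submitters' processing notes name GCRMA and Affymetrix Expression Console as tools; their order and versions are not given in the sources used here. The authors deposited 1 intensity per probe set and array on a linear scale (9.7 to 24792.1 in aorta), and array medians in aorta lay between 95.2 and 104.8.

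Intensities were taken to log2 with no pseudocount, since none was 0 or missing. Probe sets with 1 symbol were used (21789 of 35556), and where several shared a symbol the brightest on average across the 288 arrays was kept, leaving 19938 genes; no gene was left out as dim. The design had assumed log2 values, which this step supplied. Waves and differences between tissues were fitted in limma 3.58.1 with moderated F tests. Trends were fitted beside a 24 h wave with a moderated t test, and 12 h waves beside 24 h waves and a shorter harmonic. Benjamini-Hochberg adjustment was over all genes. The peak-to-trough fold has a 95% interval and the peak a delta-method standard error. The fit was tested on simulated data. There is 1 array per time and no replicate, so a p-value weighs a curve against the scatter of single pools, and the number of arrays limits precision. In the 24 h wave fits within aorta, a marker was fitted with its own value left out of its list mean. In the fits of tissue differences, 12 h waves and trends with marker means, each mean held all its members. An array stood apart where a marker mean was more than 1 log2 unit, and more than 5 scaled median absolute deviations (MAD), away from the aorta median, or where its median correlation was more than 0.003 and 5 MAD too low.

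The members and the 24 function and 28 marker lists were chosen with earlier results of these data known, and some genes are in more than 1 list. The text names all core clock genes, the 16 genes of largest fold outside the clock and the brown adipocyte, cardiomyocyte and skeletal muscle lists (above the aorta median, peaks of both days within 4 h), the 8 such that also pass with the marker means, up to 4 rhythmic and 2 other members of each function list, the 6 largest wave differences per comparison, and marker genes; some members of a list were named after their values were seen. Promoters of 15563 genes were matched in RefSeq. Alternatives changed the moderation, array weights, normalization, filter, probe set, scale, period, covariates and arrays.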

Additional observations from a re-analysis of the deposited data

Results flagged for a closer look

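The waves listed next differed between aorta and another tissue by the test of the difference itself; they are the 6 with the largest size in each comparison among genes rhythmic in aorta and above its median level. Against brown adipose, the sizes as peak-to-trough folds were 40.7 for Myh2, 3.59 for Angptl7, 3.55 for Tcap, 3.12 for Slc7a10, 2.35 for Gpt2 and 2.08 for Fibin. Against heart they were 7.19 for Myh2, 3.76 for Tshr, 3.33 for Cyp2b10, 2.98 for Nr1d1, 2.97 for Dhrs9 and 2.67 for Nr1d2. Against skeletal muscle they were 7.16 for Nr1d1, 3.98 for Nr1d2, 3.43 for Dbp, 3.32 for Angptl7, 3.23 for Cyp2b10 and 3.16 for Dhrs9. Against the mean of the other 11 tissues they were 7.17 for Myh2, 2.85 for Nr1d1, 2.82 for Tshr, 2.67 for Angptl7, 2.64 for Cyp2b10 and 2.36 for Dhrs9. The skeletal muscle marker mean varied in both aorta and brown adipose, and with the 3 marker means fitted within each tissue the difference of Myh2 was 1.94 (adjusted p = 0.64). In the same fit the differences from brown adipose were 2.73 for Angptl7 (adjusted p = 0.036), 1.71 for Tcap (0.14), 1.79 for Slc7a10 (0.34), 1.59 for Gpt2 (0.47) and 2.14 for Fibin (0.044); Myh2 is itself 1 of the 15 fibre markers in that mean. Against heart the same fit gave 2.36 for Myh2 (adjusted p = 0.037) and between 2.56 and 4.24 for the other 5, and against skeletal muscle between 2.56 and 7.21 for the 6.

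Of 13767 probe sets with no symbol or several, which no comparison above uses, 115 (0.835%) had a 24 h wave in aorta.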

How the results depend on the processing

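The count of 1015 rhythmic genes became 1879 with array weights, 567 with ranks over the 24 arrays and 595 without the arrays that stand apart, and 198 when a fold of 1.5 was asked for as well. Leaving out 1 array at a time gave 824 (without CT30) to 1228 (without CT20). With quantile normalization 1414 genes passed, and with the smooth muscle marker mean, added after the data were seen, 1374, of which 970 were among the 1015. With the 3 marker means the count was 841, and 502 without the arrays that stand apart. The trend count moved to 1 with quantile normalization. Against brown adipose the count of 283 became 426 with circadian time as a block, 507 with array weights and 14 with marker means within each tissue. With array weights 1563 genes differed from heart and 1295 from skeletal muscle. Against the mean of the other 11 tissues 592 differed with 1 variance per tissue and 214 with circadian time as a block. The causes of these moves were not tested. Of 97 rhythmic genes named, 67 also passed with the 3 marker means, 74 without the arrays that stand apart and 64 by ranks. Outside the fits of 22 h and 26 h waves, no rhythmic named gene moved its peak by over 6 h. The fit with circadian time as a block pairs the tissues by time; it gave 731 genes against heart and 682 against skeletal muscle.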
